A study of Mus musculus with 2 samples.

Results

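The cells described here are basal keratinocytes with few UMIs (unique molecular identifiers, each standing for 1 captured transcript) of the cycling genes *Mki67* and *Top2a*, taken from the epidermis of imiquimod (IMQ)-treated mouse skin. A cell was a member when it had at least 200 genes, at most 10% mitochondrial UMIs, *Krt5* and *Krt14* together at 50 or more per 10000 UMIs and at more than 4 times *Krt1* and *Krt10*, fewer than 3 UMIs of *Mki67* and *Top2a*, *Krt79* under 10 and the γδ T cell genes *Trdc* and *Trdv4* under 15 per 10000 UMIs. These limits left 1076 of 5258 epidermal cells, which is 25.8% of the 4173 cells within the limits on genes and mitochondrial UMIs (95% Clopper-Pearson interval 24.5 to 27.1). The series holds 10634 cells in all. These measured values chose the members and are given below only as a description. Members had a median of 13214.5 UMIs and 3008.5 genes.

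Both libraries of the series were made with the 10x Genomics 3′ kit (v3) from sorted live cells of the ear skin of wild-type C57BL/6 mice of 10 weeks, after topical IMQ on 5 consecutive days. The age is that of the labels, and the study's methods name a younger one for its IMQ model. One library held epidermis (5258 cells, 108768396 UMIs) and one dermis (5376 cells, 41258087 UMIs). There is no untreated library and 1 library per tissue, the number of animals behind each is not given in the sources used here, and cells of 1 library are not replicates. Every value below is therefore a description without a test, and intervals cover counting error only. A ratio is the share of all UMIs in one group over that in the other, and the range in parentheses after it is its exact 95% interval. In the dermal library, which per the study's methods was sorted for cells with the leukocyte antigen CD45 and so would leave keratinocytes out, 1 cell met the rule, with 19134 UMIs. The libraries share 45 cell barcodes, of which 11 belong to members.

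Basal keratinocytes form the proliferating layer of the epidermis. They rest on the basement membrane, where hemidesmosomes built of α6β4 integrin, collagen XVII, dystonin and plectin anchor the keratin network of KRT5 and KRT14 to laminin. Cells that leave this layer withdraw from the cell cycle, shed these attachments and switch to KRT1 and KRT10, and injured or psoriasiform epidermis adds KRT6, KRT16 and KRT17 together with alarmins such as S100A8 and S100A9. Imiquimod activates Toll-like receptor 7 and is used to induce a psoriasis-like inflammation driven by interleukin (IL)-23 and IL-17.

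The label of these cells as non-cycling was checked first, and the data went against it in part. The limit of 3 UMIs does not scale with depth, and the members were shallower than the 2148 basal cells that met every other condition but carried 3 or more *Mki67* and *Top2a* UMIs (called cycling basal cells here), with a median of 36214 UMIs. Of the members, 529 had no UMI of the pair, at a median of 2969 UMIs, and 547 had 1 or 2, at a median of 23169. At the edge, the 239 members with 2 UMIs of the pair had a median depth of 24678 UMIs and the 211 cells just outside, with 3, one of 29164. After each cell was thinned to 5000 UMIs, 24.2% of 685 members, 76.8% of 2145 cycling basal cells and 20.5% of 44 spinous cells kept a UMI of *Mki67* or *Top2a*. The limit on these genes sets these shares, since spinous cells were also held under 3 UMIs of the pair. The plot of depth against the 2 limits shows that zero counts of the pair were common among shallow cells.

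**Figure D1:**
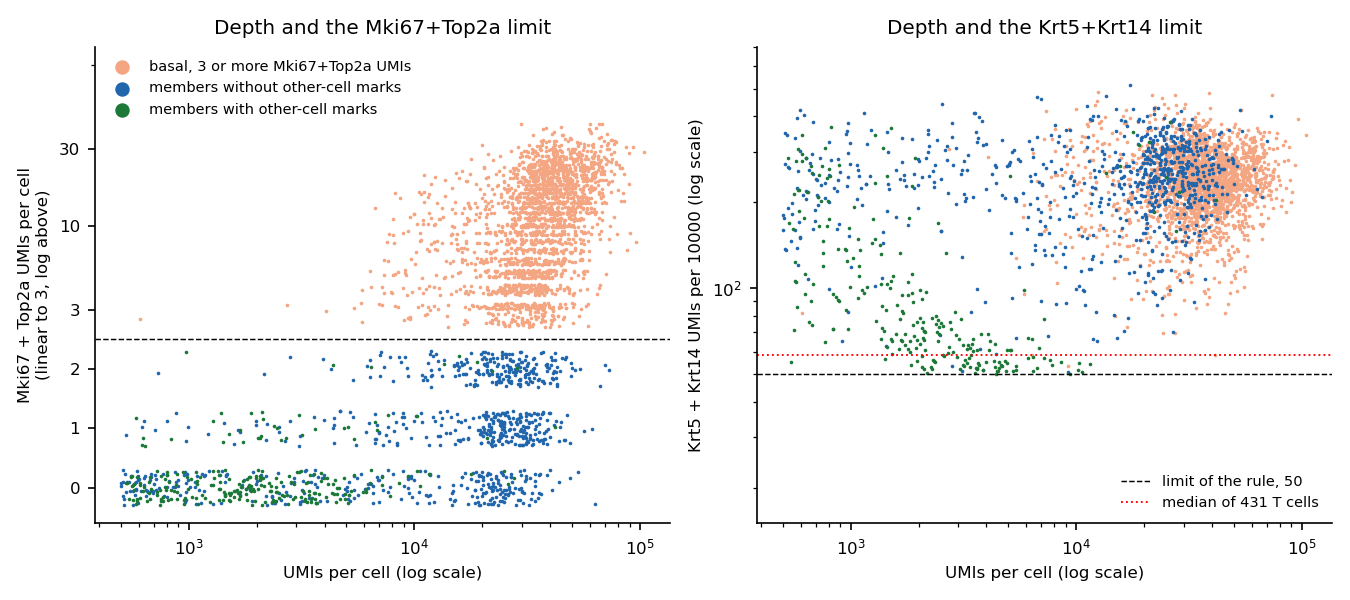
Each point is 1 cell, with its UMIs (x axis, log scale) against its *Mki67* and *Top2a* UMIs (left, points jittered) or its *Krt5* and *Krt14* UMIs per 10000 (right, log scale). Dashed lines mark the limits of the rule, and the dotted line the median of 431 T cells, 58.3 per 10000. Members with marks of other cell types (green) lie mostly below 5000 UMIs and near the lower limit.

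The lower limit on *Krt5* and *Krt14* lay at the level of free RNA. The 431 epidermal cells with *Trdc* and *Trdv4* at 15 or more per 10000 UMIs, which should lack both keratins, held a median of 58.3 *Krt5* and *Krt14* UMIs per 10000, and the 71 cells with the Langerhans gene *Cd207* at 10 or more held 38.5. The members' median was 227 and that of the cycling basal cells 239. The 69 members between 50 and 60 per 10000 had a median of 53.9, and the 140 cells at 40 to 50 that met every other condition one of 44.4. On panels chosen after seeing the data, 251 members (23.3%) carried marks of another cell type, against 23 cycling basal cells (1.07%). A leukocyte panel (*Ptprc*, *Cd52*, Tyrobp, Fcer1g, Srgn, *Lcp1*, Coro1a, Cd53 and Laptm5 at 10 or more per 10000) marked 222, MHC class II genes at 30 or more marked 89 and melanocyte genes at 5 or more marked 15, with overlaps. Marked members were shallow, with a median of 1978 UMIs against 20678 in the other 825. They made up 165 of the 203 members at 50 to 100 *Krt5* and *Krt14* UMIs per 10000 and 11 of the 207 at 300 and over.

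The whole marker lists were then summed with and without the marked cells. Lists that share genes or cell types with the panels had to be lower without them. Of 12 T cell markers all 12 had a UMI in the members, at a summed level of 2.65 per 10000 that was 1.75 without marked cells and 1.63 in cycling basal cells, led by *Thy1*. The 8 Langerhans markers summed to 11.7 per 10000, led by *Cd74* at 4.94, and to 3.28 without marked cells. The 7 melanocyte markers summed to 0.512 and 0.0379, led by *Dct*. Neutrophil markers summed to 321, nearly all of it *S100a8* and *S100a9*, which keratinocytes also make. Fibroblast markers summed to 1.63, led by *Vim*, and to 0.852 without marked cells. The bulge and lower follicle list summed to 1.16, led by *Postn*, with *Shh* at 0. Sebocyte markers were led by *Fabp5*, a fatty acid binding protein of keratinocytes too, with *Dgat2l6* at 0. Merkel cell (*Krt20*, *Atoh1*, *Piezo2* and *Sox2* at 0), endothelial (*Cdh5*, *Kdr* and *Cldn5* at 0) and erythrocyte lists (*Hbb-bt* at 0) summed to 0.0306, 0.0258 and 0.004197 per 10000. Gene ratios and list counts below that move by over 1.5 times without the marked cells are given both ways.

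All basal markers were detected in the members. *Krt14* stood at 192 and *Krt5* at 53.5 UMIs per 10000, the values the rule used, and 10 further basal markers were all detected with at least 50 UMIs. In the T cell and Langerhans lists 10 of 12 and 8 of 8 markers also reached 50 UMIs, so detection alone does not set these cells apart. Levels were close to those of the cycling basal cells: *Itga6* and *Itgb4*, the α6β4 integrin chains, were at 1.87 and 0.762 per 10000 against 2.07 and 0.924, and *Col17a1*, collagen XVII, at 1.82 against 1.66. Spinous cells (55 cells with *Krt1* and *Krt10* at 50 or more per 10000 and above *Krt5* and *Krt14*, *Lor* and *Flg* under 50 per 10000, and the members' limits on *Mki67* and *Top2a*, *Krt79* and the T cell genes, median 22711 UMIs) held less of each. *Itga6* was 4.22 (3.17 to 5.74) times higher in the members than there, *Itgb4* 4.12 (2.66 to 6.77) times and *Col17a1* 5.05 (3.69 to 7.12) times. The other partners went the same way, with *Dst* (dystonin) 4.79 (2.98 to 8.25) times higher, *Plec* (plectin) 2.91 (2.04 to 4.304) times, and the laminin chains *Lama3* and *Lamb3* 3.76 and 4.97 times. In spinous cells *Krt5* (11.1 per 10000) was no higher than in T cells (12.8), and *Itga6* (0.444) was close to their 0.334. The T cells were shallower, with a median of 2365 UMIs, so a like share stands for fewer UMIs per cell. The part of free RNA in the spinous levels was not tested.

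Of the 18 hemidesmosome and basement membrane genes, 15 had 50 or more UMIs over both groups, and 14 of them were past 2-fold higher than in spinous cells, none past 2-fold lower. Their median log2 ratio was 2.01. Members and spinous cells were chosen on opposite balances of *Krt5* and *Krt14* to *Krt1* and *Krt10*. Attachment genes move with these keratins, so the choice of cells largely set the direction of this comparison. Across all 9400 genes with that many UMIs, 22.3% were past 2-fold higher and 4.4% past 2-fold lower, and the median log2 ratio was 0.39. Every ratio to spinous cells carries this shift, so a value of 0 on the log2 scale lies below the middle of all genes. With ratios centred on that median 1299 genes were past 2-fold higher and 804 lower, in place of 2096 and 414. A minimum of 1 UMI turned the balance, to 2946 higher and 3690 lower. Against cycling basal cells, none of 15 genes of the list was past 2-fold in either direction (median -0.03), where 4.36% of 11700 genes were past 2-fold higher and 1.64% lower around a median of -0.00090. Without marked cells in either group, 1.31% of genes were past 2-fold higher and 1.69% lower than in cycling basal cells, and 20.4% higher and 4.53% lower than in spinous cells. The counts for this list were the same without them.

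Summed over cells, *Krt15*, a keratin of basal and bulge cells, was higher in the members than in each of the other keratinocyte groups. Its level was 2.72 per 10000 (95% interval 2.64 to 2.795), against 1.51 in cycling basal, 0.203 in spinous and 0.784 in upper follicle cells. The ratios were 1.798 (1.74 to 1.86), 13.4 (8.81 to 21.3) and 3.46 (2.65 to 4.602). The ratio to cycling basal cells, with their median of 36214 UMIs, mixes depths. Members of 20000 or more UMIs stood at 2.11 per 10000 and those of 5000 to 10000 at 7.92. Thinned to 5000 UMIs, 40.1% of members and 33.4% of cycling basal cells kept a *Krt15* UMI. Thinned to 1000 UMIs, 16.9% of 751 unmarked members kept a *Krt15* UMI, against 4.51% of 421 T cells and 2.99% of 67 Langerhans cells, whose median depths before thinning were 21811, 2375 and 7956 UMIs (unthinned, 50.1% of all members had a *Krt15* UMI). *Postn*, the matrix protein periostin, was at 0.801 per 10000 and 5.42 (3.32 to 9.505) times the spinous level. *Trp63*, the transcription factor that maintains the basal state, was at 0.962 against 0.915 in cycling basal and 0.499 in spinous cells. *Krt15* lies on chromosome 11 (100131758 to 100135928, minus strand, GRCm38) beside the other type I keratin genes *Krt14* (100203162 to 100207548), *Krt16* (100246091 to 100248902) and *Krt17* (100256217 to 100261029), all on the minus strand.

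Genes of DNA synthesis were not low in these cells. All 21 S phase genes of the list had enough UMIs, and 20 were past 2-fold higher than in spinous cells, while none of 21 was past 2-fold in either direction against cycling basal cells (medians 1.81 and -0.39). Of all genes 22.3% and 4.4% were higher and lower than in spinous cells, and 4.36% and 1.64% than in cycling basal cells. Spinous cells were also held to fewer than 3 *Mki67* and *Top2a* UMIs, so members and spinous cells were both chosen low in this pair. *Pcna*, the sliding clamp of DNA polymerase, was at 0.914 per 10000 in the members, 1.21 in cycling basal and 0.3697 in spinous cells. *Mcm2*, a subunit of the replicative helicase, was at 0.351, 0.336 and 0.0647, and *Mcm5* at 0.563, 0.774 and 0.185. *Ung*, an uracil glycosylase of replicating DNA, was 1.23 (1.14 to 1.33) times the cycling basal level, and *Rrm2*, a subunit of ribonucleotide reductase, was lower than there by 1.71 (1.62 to 1.801) times. Summed over the list, levels were 10.7, 14.5 and 3.02 per 10000 in the members, cycling basal and spinous cells and 7.21 in the T cells.

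Mitotic genes differed more. Against cycling basal cells 17 of the 21 G2 and M phase genes were past 2-fold lower and none higher (median -1.61), yet 14 of 21 were past 2-fold higher than in spinous cells (median 1.26), where 1.64% of all genes were lower than in cycling basal and 22.3% higher than in spinous cells. *Cdk1*, the kinase that drives entry into mitosis, was lower than in cycling basal cells by 3.41 (3.21 to 3.63) times and higher than in spinous cells by 2.79 (1.88 to 4.34) times. *Nusap1*, a spindle protein, showed the widest gap to cycling basal cells, 6.98 (5.94 to 8.25) times lower, followed by the replication-dependent histone gene *Hist1h2ap* at 6.56 (6.29 to 6.85) and *Cenpf*, a kinetochore protein, at 5.77 (5.12 to 6.52). *Aurkb*, *Gas2l3*, *Prc1*, *Sgo2a*, *Hist1h1a* and *Hist1h1b* were also among the 10 lowest, all of these genes of chromosome packing, the centromere or cell division. Because *Mki67* and *Top2a* are used by the rule and move with these genes, the direction of this comparison was fixed by the choice of cells.

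At equal depth the spread among members was wide. Of 685 members thinned to 5000 UMIs, 342 (49.9%, 95% interval 46.1 to 53.7) kept 5 or more S phase UMIs, against 73.7% of 2145 cycling basal cells and 0 of 44 spinous cells, which allows a share of up to 6.82% by a floor of 3 counts and 8.04% by the Clopper-Pearson interval. For the G2 and M list the shares were 36.8%, 83.96% and 2.27% (1 cell). Unthinned, 59.9%, 99.5% and 58.2% of the 3 groups had 5 or more S phase UMIs. In all, 206 members were at 5 or more on the S phase list alone, 116 on the G2 and M list alone, 136 on both and 227 on neither. Even among the 201 members of at least 5000 UMIs without a single *Mki67* or *Top2a* UMI, 41.8% reached 5 S phase UMIs and 26.9% reached 5 G2 and M UMIs. With 2 UMIs of the pair, 59.1% and 53.4% of 232 members did. The cells are therefore called *Mki67*/*Top2a*-low rather than non-cycling.

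**Figure D2:**
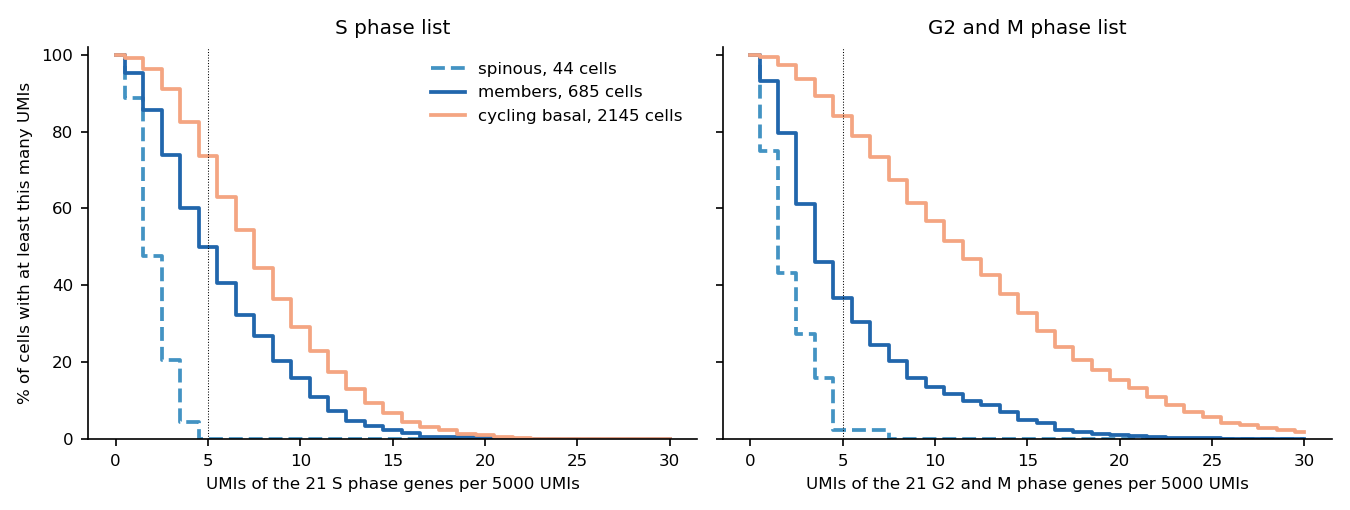
Share of cells (y axis, %) with at least a given number of UMIs (x axis) of the 21 S phase genes (left) or 21 G2 and M phase genes (right) after thinning each cell to 5000 UMIs. The members run between spinous and cycling basal cells in both panels, nearer to cycling basal cells for S phase, and the dotted line marks 5 UMIs.

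Regulators of cell cycle entry and exit lay near the cycling basal level. None of 13 such genes was past 2-fold from cycling basal cells, where 4.36% and 1.64% of all genes were higher and lower. Against spinous cells 3 of 12 were past 2-fold higher and 2 lower, beside 22.3% and 4.4% of all genes. *Ccnd1*, cyclin D1, was at 0.696 per 10000 in the members and 0.791 in cycling basal cells, and 3.96 (2.52 to 6.603) times the spinous level, and *Ccnd2*, cyclin D2, was 12.95 (6.56 to 30.05) times the spinous level. The inhibitors *Cdkn1a* (p21) and *Cdkn2b* (p15) were lower than in spinous cells by 2.67 (2.29 to 3.11) and 11.7 (6.66 to 20.2) times, and *Cdkn2a* (p16) had 2 UMIs in all members.

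The genes highest against cycling basal cells changed when marked cells were left out. With all members, the 10 highest were *Dct*, *Hdc*, *Ptgds*, *Retnlg*, *Mcpt8*, *Ccl9*, *Wfdc17*, *Il1b*, *Chil3* and *Ccl6*, many of them known from melanocytes, basophils, neutrophils and macrophages. *Il1b*, for example, was 15.3 (13.8 to 16.99) times the cycling basal level over all members and 1.09 (0.851 to 1.38) times without marked cells. Without them the 10 highest were *Klk7*, *Ly6g6c*, *Klk6*, *Mmp13*, *Prss22*, *Cst6*, *Cnfn*, *Krt42*, *Sprr1a* and *Crabp2*. *Klk7*, a kallikrein protease that acts on corneodesmosomes, was then 10.5 (8.31 to 13.2) times higher, *Cnfn*, the cornified envelope protein cornifelin, 4.46 (3.99 to 4.98) times and *Sprr1a*, a small proline-rich envelope protein, 3.36 (3.06 to 3.69) times. Their levels stayed low, at 0.147, 0.379 and 0.4702 per 10000, below those of spinous cells (0.693, 1.53 and 1.92) and further below those of upper follicle cells (5.98, 2.15 and 6.504). *Cst6*, the protease inhibitor cystatin M/E, and *Klk6* were likewise highest in upper follicle cells, at 199 and 3.71 per 10000 against 2.19 and 0.124 in the unmarked members, 3.84 and 0.314 in spinous cells. Thinned to 5000 UMIs, 2% of unmarked members and 0.606% of cycling basal cells kept a *Klk7* UMI. For *Cst6* the shares were 20.8% and 17.4%, and the top 5% of unmarked members held 89.6% of its UMIs. Of the lists, 6 of 14 granular and cornified envelope genes were past 2-fold higher than in cycling basal cells and 1 lower, 3 of 12 spinous genes higher and 0 lower, and 3 of 8 upper follicle markers higher and 0 lower, where 1.31% and 1.69% of all genes were higher and lower.

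**Figure D3:**
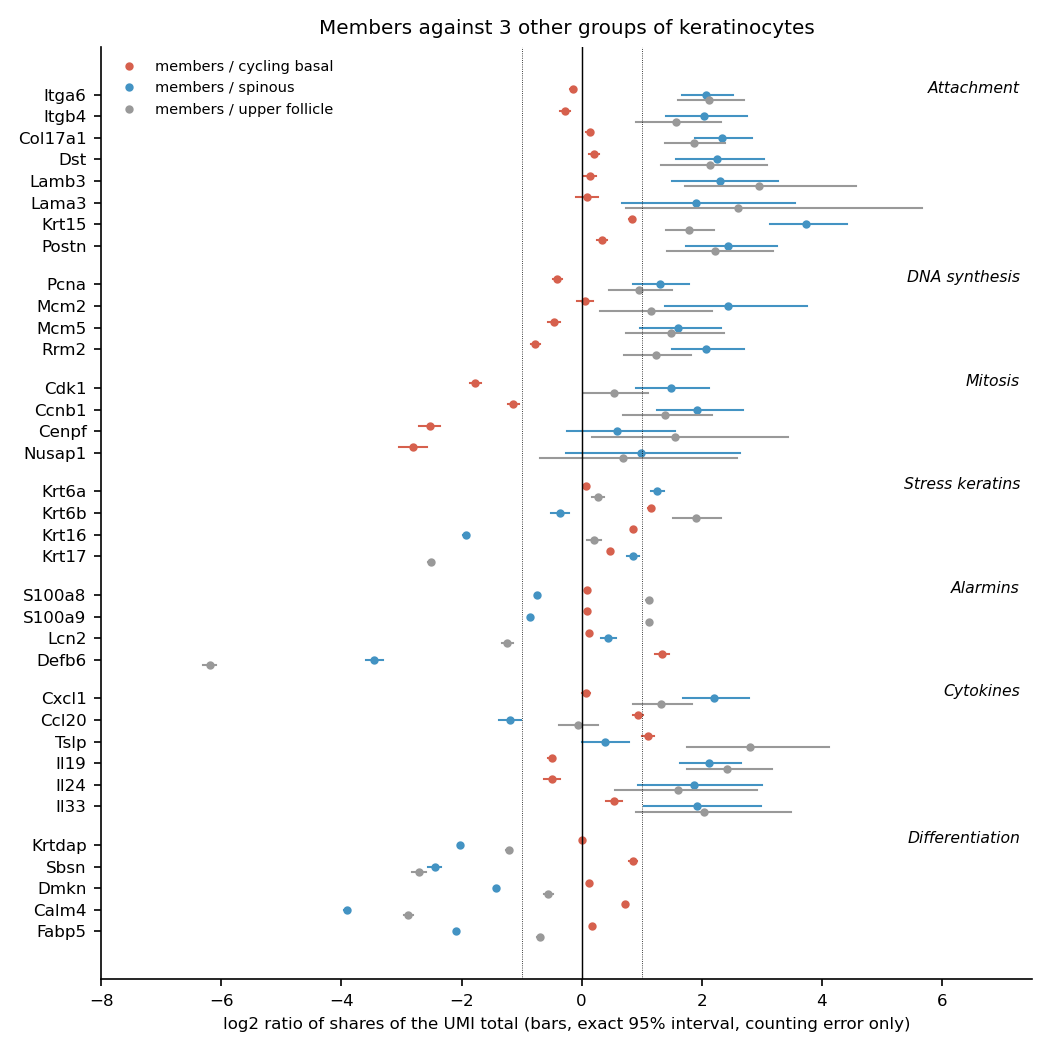
The log2 ratio of the members' share of all UMIs to that of cycling basal (red), spinous (blue) and upper follicle cells (grey) for genes grouped by role, with exact 95% intervals for counting error only. Dotted lines mark 2-fold. Attachment and DNA synthesis genes lie within 2-fold of cycling basal cells and to the right of 0 against spinous cells, mitotic genes lie left of 0 against cycling basal cells, and *Defb6* and differentiation genes lie left of 0 against spinous cells.

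Genes of the suprabasal layers were lower than in spinous cells but present. Spinous cells were chosen on *Krt1* and *Krt10*, which move with many of these genes, so the choice of cells largely set this direction too. Outside the genes of the rule, 11 of 12 spinous genes were past 2-fold lower in the members and none higher, as were 8 of 13 granular and cornified envelope genes, where 4.4% of all genes were lower. The lowest ratios were those of *2310046K23Rik* at 42.3 (36.2 to 49.5) times lower, *Krt2*, a late suprabasal keratin at 17.6 (16.4 to 18.9) times, *Dsg1a*, a desmosomal cadherin at 16.5 (12.7 to 21.5) times, and *Calm4*, a calmodulin-like protein of differentiating keratinocytes at 15.03 (14.5 to 15.5) times, followed by *Acer1*, *Oas1f*, *Elovl4*, *Serpinb3a*, *Pinlyp* and *Defb6*. *Acer1*, a ceramidase, breaks down ceramides, and *Elovl4*, a fatty acid elongase, makes the very long acyl chains of barrier ceramides. *Krtdap* stood at 18.7 per 10000 in members and 76.4 in spinous cells, *Dmkn* (dermokine) at 16.04 and 42.9, and *Fabp5* at 57.6 and 244, where T cells held 5.65, 4.38 and 16.1. Of 21 basal and differentiation transcription factors, 5 were past 2-fold lower than in spinous cells, 2 past 2-fold higher and 14 within 2-fold (median log2 ratio -0.23), where of all genes 4.4% were lower and 22.3% higher around a median of 0.39. Among the lower ones were *Klf4*, by 2.68 (2.36 to 3.03) times, *Grhl1*, by 3.27 (2.51 to 4.21) times, and *Cebpa*, by 3.19 (2.499 to 4.02) times. *Lor* and *Flg*, the main proteins of granular cells, had under 0.05 UMIs per 10000 in members, cycling basal and spinous cells, the last of which were chosen with both under a limit.

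In the other direction, and without marked cells, the 10 genes highest against spinous cells were *Slc12a4*, *Cx3cr1*, *Ptpre*, *Fst*, *Trabd2b*, *Smoc2*, *Slc29a1*, *Pdgfa*, *Eif4e3* and *Igfbp3*. *Slc12a4* (a potassium-chloride cotransporter), *Ptpre*, *Fst* (follistatin, an inhibitor of activin and BMPs) and *Trabd2b* had 0 UMIs in spinous cells, so that the unmarked members were at least 5.63, 5.45, 5.15 and 5.13 times higher against 3 counts over the spinous group. *Igfbp3*, a binding protein of insulin-like growth factors, had 2 UMIs there and a ratio of 16.8 (4.63 to 139), and *Pdgfa*, the growth factor for fibroblasts, had 1 and a ratio of 31.5 (5.62 to 1245). With all members, *Dct*, *Pf4*, *Il17f*, *Cd14* and *Plac8* took the places of *Smoc2*, *Slc29a1*, *Pdgfa*, *Eif4e3* and *Igfbp3*.

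The stress keratins did not move as 1 group. *Krt16* was 3.81 (3.69 to 3.94) times lower in the members than in spinous cells and 1.82 (1.79 to 1.85) times higher than in cycling basal cells, at levels of 10.9, 41.6 and 5.99 per 10000. *Krt6a*, one of its type II partners, was 2.397 (2.22 to 2.598) times higher than in spinous and 1.06 (1.04 to 1.07) times the level of cycling basal cells. *Krt6b* was 2.23 (2.15 to 2.304) times the cycling basal level and close to the spinous one (2.95 and 3.78). These are sums over cells. Thinned to 5000 UMIs, 26.4% of members and 25.1% of cycling basal cells kept a *Krt6b* UMI, and 62.8% and 63.5% a *Krt16* UMI. The top 5% of the thinned members held 73.7% of the *Krt6b* and 56.9% of the *Krt16* UMIs. *Krt17* was at 13.9 in the members and at 79.7 in upper follicle cells, 5.72 (5.55 to 5.89) times higher there. T cells held 2.44, 3.58, 0.743 and 2.54 per 10000 of *Krt16*, *Krt6a*, *Krt6b* and *Krt17*. These genes share long stretches of sequence with each other, so their split of reads is uncertain.

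Alarmins were the most abundant transcripts outside the rule, the mitochondrial genes and the ribosomal protein genes. On the scale of 3′ UMIs, which are counted once per transcript and not divided by length, *S100a9* stood at 172 and *S100a8* at 147 per 10000, the subunits of calprotectin, followed by *Lgals7* (galectin-7), *BC100530*, *Eef1a1* and *Fabp5*. Both S100 genes were lower than in spinous cells, by 1.68 (1.66 to 1.702) times for *S100a8* and 1.81 (1.79 to 1.83) times for *S100a9*, within 2-fold of cycling basal cells (139 and 163 per 10000), and at 42.5 and 45.2 in T cells. *S100a6* (49.9 and 15.2 per 10000) and the metallothionein *Mt2* (26.1 and 6.17) were higher than in spinous cells. *Defb6*, a β-defensin, was 10.98 (9.95 to 12.1) times lower than in spinous and 73.3 (68.2 to 78.9) times lower than in upper follicle cells. *Lcn2*, the iron-binding lipocalin, was at 6.71 per 10000 against 4.93 in spinous cells. Of the 15 genes of the list, 9 had 50 UMIs or more against spinous cells, with 3 past 2-fold higher and 2 lower (median 0.40), beside 22.3% and 4.4% of all genes and their median of 0.39. Without marked cells the counts were 0 of 8 higher and 3 lower (median -0.78), beside 20.4% and 4.53% and 0.36 for all genes. The 3 that were higher with marked cells, *Slpi*, *Saa3* and *Wfdc21*, stood at 0.639, 0.4797 and 0.111 per 10000 over all members and 0.282, 0.0341 and 0.00758 without them. Against cycling basal cells 6 of 11 were past 2-fold higher, and 3 of 11 without marked cells, where 4.36% and 1.31% of all genes were higher.

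*Cxcl1*, which attracts neutrophils through CXCR2, was 4.63 (3.24 to 6.89) times the spinous level at 1.28 per 10000 and level with cycling basal cells (1.22). *Ccl20*, which attracts CCR6+ cells such as type 17 T cells, was 2.28 (2.003 to 2.59) times lower than in spinous cells and 1.91 (1.81 to 2.02) times higher than in cycling basal cells. *Cxcl14*, made by resting epithelium, was 1.799 (1.62 to 1.998) times the cycling basal level. *Cxcl2* was at 1.56 per 10000 over all members and 0.445 without marked cells. *Tslp*, an epithelial alarm cytokine of type 2 immunity, was 2.15 (2.01 to 2.31) times the cycling basal level, at 0.6997 against 0.325, with 0.0743 in T cells. The IL-20 family members *Il19* and *Il24* were lower than in cycling basal cells (1.37 against 1.94 and 0.303 against 0.426) and 4.35 (3.11 to 6.3) and 3.65 (1.91 to 8.02) times the spinous level, though *Il24* was below it when members and spinous cells were limited to those without a *Mki67* or *Top2a* UMI. *Il33*, a nuclear alarmin, was 3.802 (2.05 to 7.97) times the spinous level. Shares of cells differed less for some of these genes. Thinned to 5000 UMIs, 9.64% of members and 9.09% of spinous cells kept an *Il33* UMI, and 24.1% and 20.5% an *Il19* UMI. For *Il24* the shares were 8.47% and 4.55%, and for *Cxcl1* 33.3% and 15.9%. Of the IL-36 genes, which the counts hold under older symbols, *Il1f9* (IL-36γ) was at 0.513 against 0.758 in spinous cells and *Il1f5* (the IL-36 receptor antagonist) at 0.0234 against 0.203. Without marked cells 7 of 9 chemokines and 5 of 14 cytokines were past 2-fold higher than in spinous cells, with 1 and 5 lower, where 20.4% of all genes were higher and 4.53% lower. With marked cells the counts were 8 of 10 and 7 of 16, with 1 and 5 lower, beside 22.3% and 4.4% of all genes.

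Of 32 receptors and adaptors, 28 had 50 UMIs or more against cycling basal cells, with 2 past 2-fold higher and 0 lower, and without marked cells 0 of 27 in either direction, where over all genes 4.36% were higher and 1.64% lower, and 1.31% and 1.69% without marked cells. *Il17rc*, a chain of the IL-17 receptor, was at 0.645 per 10000, 1.96 (1.63 to 2.35) times lower than in spinous cells, and its partner *Il17ra* at 0.0845, below the 0.353 of T cells. *Il22ra1* and *Tlr7* each had 1 UMI in all members. *Il1r2*, a decoy receptor of IL-1, was at 0.354 over all members, 0.156 without marked cells and 9.66 in Langerhans cells. *Socs3*, a feedback inhibitor of STAT3 signalling, was 3.602 (2.295 to 6.01) times the spinous level. Of 26 receptors and adaptors with enough UMIs against spinous cells, 5 were past 2-fold higher and 0 lower, beside 22.3% and 4.4% of all genes. For the EGF receptor and its ligands the counts were 1 of 8 higher and 0 lower. The EGF receptor ligands *Hbegf* and *Areg* stood at 0.754 and 0.618 per 10000, within 2-fold of cycling basal and spinous cells, and *Nrg1* (neuregulin-1) was 3.296 (1.78 to 6.91) times the spinous level.

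Of 19 signalling genes of the Wnt, Notch and BMP pathways with enough UMIs, 10 were past 2-fold higher than in spinous cells and 0 lower (median 1.07), beside 22.3% and 4.4% of all genes and their median of 0.39. None of 22 was past 2-fold from cycling basal cells, where 4.36% and 1.64% of all genes were higher and lower. *Wnt10a* was 5.69 (3.17 to 11.4) times the spinous level, the Notch ligand *Jag2* 4.03 (2.11 to 8.86) times, and the receptor *Notch1* 2.296 (1.52 to 3.64) times. *Slc2a1*, the glucose transporter GLUT1, was 3.78 (2.93 to 4.97) times the spinous level. Of 15 glycolysis genes, 2 were past 2-fold higher than there and none lower, beside 22.3% and 4.4% of all genes. Of the cholesterol synthesis genes, 6 of 14 were past 2-fold lower than in spinous and 13 of 14 lower than in upper follicle cells (all genes 4.4% and 8.33%), and none higher. *Fdps*, farnesyl diphosphate synthase, was 2.64 (2.42 to 2.87) and 2.83 (2.56 to 3.12) times lower. Sebocyte markers were also lower than in upper follicle cells, with 4 of 5 past 2-fold lower and 0 higher, beside 8.33% and 13.4% of all genes.

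Interferon-stimulated genes stood below 0.5 per 10000 apart from *Ifitm3*, which restricts virus entry and stood at 26.2, 2.21 (2.09 to 2.34) times the spinous level. Only 11 of the 20 had 50 UMIs or more over members and cycling basal cells, with 4 past 2-fold higher over all members and 0 of 10 without marked cells, where 4.36% and 1.31% of all genes were higher. *Isg15* stood at 0.0276 per 10000 and at 0.00758 without marked cells. Immediate early and heat shock genes, which respond to cell isolation too, showed 0 of 18 past 2-fold from cycling basal cells, beside 4.36% and 1.64% of all genes higher and lower. *Tnc*, tenascin-C, which the study followed in fibroblasts, was at 0.0534 per 10000 in members and 0.0523 in cycling basal cells. Of 20 tenascin, neurotrophic and guidance genes, 11 had enough UMIs against spinous cells, 4 past 2-fold higher and 0 lower, beside 22.3% and 4.4% of all genes. *Sema3c*, an axon guidance ligand, was 7.28 (2.82 to 26.8) times the spinous level, and *Itga7*, the α7 integrin chain, was at 0.0546 against 0.07499 per 10000 in cycling basal cells.

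Upper follicle cells (43 cells with *Krt79* at 10 or more per 10000 and the members' limits on *Mki67* and *Top2a* and the T cell genes, median 18716 UMIs) were compared last. Across 9400 genes, 13.4% were past 2-fold higher in the members and 8.33% lower around a median log2 ratio of 0.04. The balance of these shares turned with the settings, to 559 higher and 1118 lower with a pseudocount of 2 and to 1735 higher and 5008 lower with a minimum of 1 UMI. Without marked cells the shares were 11.7% and 8.74%. Outside *Krt79*, 6 of 8 upper follicle markers were past 2-fold lower in the members and 1 higher, *Fst*. *Cidea*, a lipid droplet protein of sebaceous cells, was lowest against them, by 249.8 (169 to 382) times, and *Cst6* was 95.04 (91.6 to 98.7) times lower. The others of the lowest 10 were *Defb6*, *Psapl1*, *Cers4*, *Klk7*, *Aadac*, *Klk6*, *Scd1* and *Calml3*. On the high side without marked cells, *Procr*, the endothelial protein C receptor, had 735 UMIs in the unmarked members and 0 in upper follicle cells, at least 10.8 times higher against 3 counts over that group, and *Pdpn* (podoplanin) was at least 3.98 times higher. Of 15 hemidesmosome and basement membrane genes 10 were past 2-fold higher and none lower. *Sox9*, a factor of follicle stem cells, was at 0.113 in the members and 0.713 in upper follicle cells.

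Among the members without marks of other cells, attachment genes were lower, and some but not all genes of differentiation higher, where more of the keratin UMIs came from *Krt1* and *Krt10*. They were binned by the share of *Krt1* and *Krt10* among the UMIs of *Krt1*, *Krt10*, *Krt5* and *Krt14*, from 0 to 1% (392 cells) over 1 to 2% (126), 2 to 5% (73) and 5 to 10% (38) to 10 to 20% (39). *Itga6* went from 2.21 in the first of these bins through 1.16 in the third to 0.611 per 10000 in the last, *Col17a1* from 2.12 through 1.07 to 0.594, and *Itgb4* from 0.865 through 0.583 to 0.215. The 18 hemidesmosome and basement membrane genes summed to 12.3, 9.11, 6.65, 3.89 and 3.88 per 10000. *Fabp5* went the other way along the bins, from 42.5 to 179, *Calm4* from 2.43 to 18.5, *Krt2* from 0.551 to 4.39 and *Dsg1a* from 0.0304 to 0.429. *Sbsn*, the secreted protein suprabasin, did not follow them, with 1.29, 1.91, 3.998, 1.601 and 1.55 over the bins, nor did *Ivl*, the envelope protein involucrin, with 0.205, 0.1302, 0.109, 0.169 and 0.0825. S phase genes summed to 11.7 in the first bin and 5.17 in the last. 

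Summed over cells, 3 of the 4 stress keratins were highest between the ends. In the bin of 2 to 5%, *Krt6a* stood at 24.6 per 10000, *Krt6b* at 9.07 and *Krt17* at 26.9, against 14.1, 2.097 and 12.9 at 0 to 1% and 12.3, 5.46 and 7.34 at 10 to 20%. *Krt16* summed to 28.2 at 2 to 5% and to 28.3 in the last bin. Its median cell held 1.70 per 10000 at 0 to 1%, 3.37 at 2 to 5% and 5.69 at 10 to 20%. *Cst6*, an upper follicle marker, was highest in the bin of 2 to 5%, at 15.9 against 0.649 and 0.957. A large part of these UMIs lay in few cells. Of the 73 cells at 2 to 5%, 3 held 86.3% of the *Cst6* UMIs, and the top 3 for each gene held 41.1% of the *Krt17*, 34.7% of the *Krt6a*, 49.5% of the *Krt6b* and 44.02% of the *Krt16* UMIs. The median cell at 0 to 1%, 2 to 5% and 10 to 20% held 3.33, 6.91 and 4.83 per 10000 of *Krt17*, 3.42, 9.47 and 7.81 of *Krt6a*, 0.348, 0.419 and 0.481 of *Krt6b* and 0.315, 0.334 and 0.266 of *Cst6*, so the median cell of *Krt6b* was not highest at 2 to 5%. Of the 73 cells, 15 had a *Krt79* UMI (81 of 392 at 0 to 1%), under the limit of 10 per 10000 that sets upper follicle cells apart, and the part of such cells in these levels was not tested. *Krt15* stayed between 2.77 and 3.06 up to 5% and was 0.3796 in the last bin. Median depths of these bins ran from 12412 to 24910 UMIs. The 157 cells with no *Krt1* or *Krt10* UMI were shallow, with a median of 1695 UMIs, and are shown apart.

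**Figure D4:**
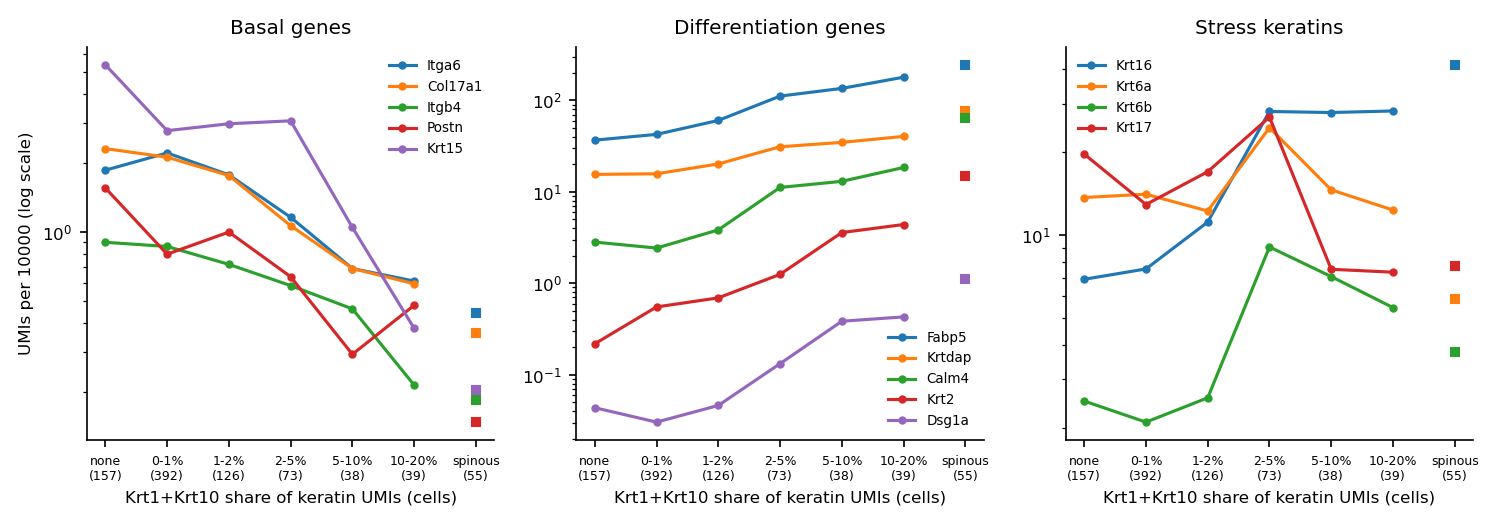
Level (y axis, UMIs per 10000, log scale) of basal genes, differentiation genes and stress keratins over unmarked members binned by the share of *Krt1* and *Krt10* among keratin UMIs, with the number of cells in parentheses. Squares give the spinous cells. *Itga6*, *Col17a1* and *Itgb4* descend and *Fabp5*, *Krtdap*, *Calm4*, *Krt2* and *Dsg1a* ascend from 0-1% to 10-20%, while the summed *Krt6a*, *Krt6b* and *Krt17* are highest at 2-5%.

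The genes that varied most from member to member were first those of other cells. With all 685 members of 5000 UMIs or more, thinned to that depth, the 10 highest Fano factors (variance over mean, where the median of 2069 genes was 1.08) were those of *Mcpt8*, *Cst6*, *Cd74*, *Il22*, *Lyz2*, *H2-Ab1*, *H2-Aa*, *Cst3*, *Tmsb4x* and *Ifitm1*. *Mcpt8*, a basophil protease, had a UMI in 0.7299% of members and up to 225 UMIs in a cell. Over the 650 unmarked members the 10 were *Cst6*, *Krt17*, *S100a9*, *Fabp5*, *Krt16*, *S100a8*, *Defb6*, *Krt6b*, *Cx3cr1* and *Krt6a*. *Cst6* had a Fano factor of 195, a median of 0 UMIs and a highest value of 393, and the top 5% of cells held 89.6% of its UMIs. *Krt16* had a factor of 34.6, a median of 1 and a 95th percentile of 26.6 UMIs. *S100a9* and *S100a8* had medians of 70 and 61 and 95th percentiles of 197 and 159 UMIs. *Cx3cr1*, the fractalkine receptor of myeloid and T cells, had a UMI in 6.46% of unmarked members, and the top 5% of cells held 94.3% of its UMIs. The factor of *Krt15* was 13.7.

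The *Krt15* level, chosen for a split after its values were seen, differed widely between members. Of the 650 unmarked members with 5000 UMIs or more, 186 had no *Krt15* UMI, the median was 0.663 and the highest 110.1 per 10000, and 63 cells (9.69%) reached 10 or more, against 4.103% of cycling basal cells of that depth. They held 58.3% of the *Krt15* UMIs. The split cuts a range, with 48 cells between 5 and 10 and 33 between 10 and 20 per 10000. Median depths were 19038 and 24019 UMIs. *Krt5* and *Krt14* were alike on both sides (ratios 1.14 and 0.987), as were *Itga6*, at a ratio of 1.04 (0.904 to 1.19), and *Itgb4*, at 1.05 (0.837 to 1.301), while *Col17a1* was 1.44 (1.27 to 1.62) times higher in the *Krt15*-high cells. All 5 bulge and lower follicle genes with enough UMIs were past 2-fold higher, where 5.15% of 8937 genes were higher and 3.95% lower. *Sox9* was 3.97 (2.73 to 5.67) times higher, *Tbx1*, a transcription factor of follicle stem cells, 3.34 (2.33 to 4.69) times and *Postn* 2.98 (2.57 to 3.43) times. *Lhx2* had 14 UMIs in the *Krt15*-high cells and a ratio of 18.2 (7.502 to 45.7). *Lgr5*, a marker of follicle stem cells, had 14 in them and 1 in all others. *Cd34* had 2 UMIs in them and 5 in all others, a ratio whose interval (0.494 to 31.7) spans 1. Some genes of the upper follicle list were also higher, so the trait was not particular to bulge and lower follicle genes. *Lrig1* was 3.89 (2.03 to 7.04) times higher, *Fst* 3.56 (2.53 to 4.92), *Cst6* 1.87 (1.68 to 2.07) and *Krt79* 1.68 (1.11 to 2.44) times. *Defb6* of that list went the other way, at 0.557 (0.393 to 0.767) times the level of the others.

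Among genes with at least 200 UMIs, those highest in the *Krt15*-high cells were *Slpi*, *Nbl1*, *Fst*, *Cxcl14*, *Il1r2*, *Ifi27l2a*, *Atf3*, *Tbx1*, *Thbs1*, *Vdr*, *Sostdc1*, *Barx2*, *Gstm5*, *Chil1* and *Btg2*. *Fst* was 3.56 (2.53 to 4.92) times higher and *Sostdc1*, a secreted inhibitor of BMP and Wnt signals, 3.25 (2.56 to 4.102) times. Of the Wnt, Notch and BMP list, 6 of 19 genes were past 2-fold higher and 0 lower. Of the immediate early and heat shock genes, 8 of 18 were past 2-fold higher and none lower, with *Atf3*, a stress-response transcription factor, at 3.44 (2.99 to 3.94) times. *Btg2*, an antiproliferative gene, was 3.09 (2.71 to 3.52) times higher. On the low side stood *Krt6b*, at 0.0732 (0.0477 to 0.107) times the level of the others, *Sprr1b*, an envelope precursor, at 0.122 (0.0825 to 0.173) times, and *Epgn*, an EGF receptor ligand, at 0.111 (0.03605 to 0.262) times. *Krt16* was at 1.91 against 11.9 per 10000, *Krt6a* at 4.16 against 15.3, *S100a9* at 72.6 against 183 and *S100a8* at 75.7 against 155. *Krt17* was within 2-fold, at 0.717 (0.676 to 0.761) times the level of the others. Of the stress keratins 3 of 4 were past 2-fold lower and 0 higher. The alarmin list went both ways, with 2 of 7 past 2-fold lower and 2 higher. Of the granular and cornified envelope genes 9 of 14 were past 2-fold lower and none higher. These counts stand beside 5.15% of all genes higher and 3.95% lower. S phase genes summed to 8.79 against 11.02 per 10000 and G2 and M genes to 5.69 against 9.35, with *Cdk1* at 0.458 (0.314 to 0.648) times the level of the others.

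**Figure D5:**
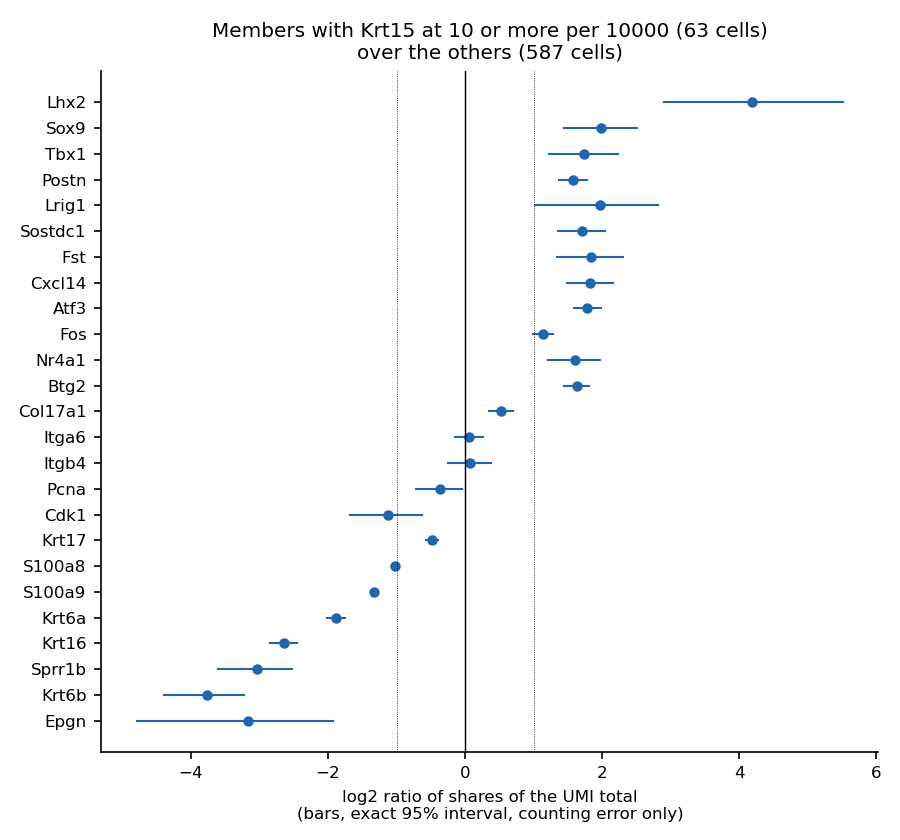
The log2 ratio (x axis, points, with exact 95% intervals for counting error only) between unmarked members of at least 5000 UMIs with *Krt15* at 10 or more per 10000 (63 cells) and the others (587 cells). *Lhx2*, *Sox9*, *Tbx1*, *Postn*, *Fst*, *Sostdc1* and several immediate early genes lie to the right, integrin genes at 0, and stress keratins, S100 genes, *Sprr1b* and *Epgn* to the left. Of the stress keratins, *Krt17* lies within 2-fold.

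*Krt15* also differed between depths. Over unmarked members of under 2000 (112 cells), 2000 to 5000 (63), 5000 to 10000 (83), 10000 to 20000 (134) and 20000 or more UMIs (433), it stood at 2.22, 5.39, 9.395, 4.79 and 2.09 per 10000. *Itga6* stood at 1.205, 1.34, 3.29, 2.34 and 1.805, and *Col17a1* at 1.02, 1.68, 2.995, 2.25 and 1.77. The mitochondrial transcript mt-Atp6 stood at 25.9, 54.2, 147, 90.6 and 55.5, and the nuclear RNA *Malat1* at 17.9, 33.9, 49.4, 28.5 and 18.3. All 5 were highest between 5000 and 10000 UMIs and not in the shallowest cells. *Krt16* stood at 17.1, 19.3, 14.2, 6.57 and 11.8, and *Krt5* between 47.9 and 56.02. The part of depth in the *Krt15* result was not tested beyond the limit of 5000 UMIs.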

How the data were processed

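Per the file headers and the submitters' processing notes, the authors made the deposited UMI counts per gene and cell with CASAVA and Cell Ranger (3.0.2 in the file header) against mm10. Of 31053 gene identifiers, 30934 were found in GENCODE M21 (GRCm38), which gave the coordinates. The study's methods kept cells of 200 to 5000 genes and at most 5% mitochondrial content and removed doublets, whereas here cells of at least 200 genes and at most 10% were used, without an upper limit. A Scrublet threshold (scanpy 1.11.5) marked 8 cells, so the 139 highest scores were removed as an alternative. UMIs were summed over the cells of a group and compared as shares of the group's total, with a pseudocount of 0.5 on the log2 scale, for genes whose UMIs in the 2 groups summed to 50 or more. Intervals for ratios are exact and conditional on the sum, and those for shares Clopper-Pearson, both at 95%. Thinning drew UMIs without replacement to 5000 (cell cycle lists, Fano factors) or 1000 (shares beside T and Langerhans cells). The calculations (Python 3.11.15, numpy 2.4.6, scipy 1.17.1, pandas 2.3.3) were tested on simulated data. Depth per cell is given with each group.

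The text names genes of preset lists, the 20 highest levels, the 10 highest and lowest ratios per comparison among genes with at least 200 UMIs, and the 10 highest Fano factors among genes with a mean of at least 0.25 UMIs, leaving out genes of the gates, mitochondrial genes and ribosomal protein genes from the ranked picks. The members and lists were chosen with earlier results of these data known. The panels for marked cells and the *Krt15* split, with the genes it ranks, were chosen after seeing the data. *Il36g* and *Il36rn* were matched to *Il1f9* and *Il1f5* through RefSeq synonyms. Alternatives covered cell limits, doublets, keratin and cycling limits, depth, scaling, cell weights, UMI minimum and pseudocount. There was no test between groups, since each tissue has 1 library. The dermal library was used only to apply the rule. Some genes picked by these rules are not reported here.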

Additional observations from a re-analysis of the deposited data

How the results depend on the processing

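No paired analysis was possible because epidermis and dermis were each covered by a single library, which also left no replicate to omit. The number of members was 529 with *Mki67* and *Top2a* at 0 UMIs and 685 among cells of at least 5000 UMIs, and stayed within 1.5 times of 1076 under the other limits tried. Against cycling basal cells, where 510 genes were past 2-fold higher and 192 lower, the count of higher genes was 161 with *Krt5* and *Krt14* at 100 or more per 10000, 267 with at least 5000 UMIs per cell, 151 without marked cells (an alternative chosen after seeing the data), 144 with cells thinned to 5000 UMIs, 921 among genes with at least 20 UMIs and 2970 among those with at least 1. With *Mki67* and *Top2a* at 0 the counts were 877 higher and 354 lower, and with the mean of per-cell shares 1080 and 295. The lower genes numbered 513 among those with at least 1 UMI. Against spinous cells, where 2096 genes were higher and 414 lower, the counts were 1346 and 226 with *Mki67* and *Top2a* at 0, 1299 and 804 with ratios centred on their median, and 1186 and 251 after thinning. A pseudocount of 2 gave 1287 and 498. A minimum of 1 UMI gave 2946 higher and 3690 lower, which turned the balance round. Against upper follicle cells, where 1261 were higher and 783 lower, 458 were lower with *Mki67* and *Top2a* at 0 and 1182 (1735 higher) with a minimum of 20 UMIs. The balance turned to 1735 higher and 5008 lower with a minimum of 1 UMI and to 559 and 1118 with a pseudocount of 2. The higher genes numbered 2184 with the mean of per-cell shares, and thinning gave 772 higher and 456 lower. Of the 10 most variable genes, 4 were among the 10 with thinning to 2000 UMIs and 1 without marked cells. Apart from the last, which follows from the cells left out, the cause of these shifts was not tested.

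Over 155 pairs of a named gene and a comparison, 1860 alternative log2 ratios were computed under settings that can change them, of which 1421 lay within the counting interval, 426 moved beyond it and 13 changed sign. Of the 155 pairs, 85 moved with *Mki67* and *Top2a* at 0, 85 with thinning and 81 with the mean of per-cell shares. *Saa3* against spinous cells was at -0.24 with *Krt5* and *Krt14* at 100 or more per 10000, at -0.13 with at least 5000 UMIs and at -1.75 without marked cells. *Wfdc21* was at -0.21, -0.27 and -1.55 in the same settings. *Il24* against spinous cells was at -0.66 with *Mki67* and *Top2a* at 0. Without marked cells, *Dct* was at -0.70 against spinous and -1.15 against cycling basal cells, and *Ccl6* at -0.23, *Chil3* at -0.067, *Ptgds* at -0.65 and *Wfdc17* at -0.078 against cycling basal cells.

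The spinous and upper follicle groups held 55 and 43 cells, so a gene with few UMIs there had a wide interval, and intervals leave out differences between animals. Cells under 5000 UMIs, 391 of the 1076 members, enter the summed levels but not the thinned shares.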
